A study of Rattus norvegicus with 6 samples.

Results

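The Piezo and acid-sensing ion channel (ASIC) genes of the rat dorsal root ganglion (DRG) were examined after transection of the spinal nerve. They were picked by gene name, with earlier results of these data known: Piezo1, Piezo2, Asic1, Asic2, Asic3 and Asic4, which made up 6 of the 13379 genes measured. The array annotation carries their older symbols (Fam38a, Fam38b, Accn2, Accn1, Accn3 and Accn4), and these named 104 of the 164162 probe sets assigned to a single gene. A probe set is a small group of probes that usually lies within 1 exon. A further 14 probe sets are annotated RGD1306866, which the current rat gene table lists as another name of Piezo2. They were kept apart from the 16 probe sets named Fam38b and are given separately below.

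RNA was taken from the L5 DRG of male Wistar rats, and poly(A) RNA was hybridised to Affymetrix rat exon arrays. The SNT group was sampled at day 7 after the L5 spinal nerve had been transected (SNT), an injury that cuts the peripheral axons of the L5 sensory neurones and is used as a model of neuropathic pain. The naive group had no operation and was not sham-operated, so effects of the surgery and of the nerve injury cannot be told apart. Each group had 3 arrays, and each array held RNA pooled from 4 animals, so that 12 animals stood behind each group and no value belongs to a single animal. No age, transgene or drug was given for either group.

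Piezo channels are very large membrane proteins that open when the membrane is stretched or indented and let cations into the cell. In sensory ganglia Piezo2 is the main channel of light touch and of proprioception, while Piezo1 is best known from endothelial cells, red blood cells and other non-neuronal cells. ASICs are sodium-permeable channels made of 3 subunits that open when the fluid outside the cell turns acid. Asic1, Asic2 and Asic3 encode subunits found in sensory neurones, Asic3 being strongly associated with acid-evoked pain in muscle and heart, and the protein made from Asic4 does not form an acid-gated channel by itself.

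Values are log2 levels after robust multi-array average (RMA) normalisation, so a difference of 1 is a doubling, and the level of a gene is the median polish of its probe sets. Over all probe sets the naive arrays correlated with each other at r = 0.984 to 0.986 and the SNT arrays at 0.958 to 0.969. SNT array 1 lay nearer to the naive arrays (r = 0.955 to 0.960) than SNT arrays 2 and 3 did (0.938 to 0.947). The median SD of a gene was 0.089 among naive arrays and 0.177 among SNT arrays, and the SD was the larger one in SNT for 78.0% of genes. Among all genes 36.3% passed a false discovery rate (FDR) of 0.1 in limma. Of these, 35.7% were higher in SNT, and this share was 46.1% after cyclic loess and 56.2% when each array was centred on its median. The median change over the whole gene table was -0.017, and centring brought it to 0.092. The arrays measure the whole ganglion, so fewer cells of a type and less RNA per cell cannot be told apart.

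At the gene level, 5 of the 6 member genes were differentially expressed at an FDR of 0.1, against the 36.3% of all genes. Piezo2, Asic1, Asic2 and Asic3 fell and Piezo1 rose. Genes that passed lower made up 23.3% of all genes and those that passed higher 12.9%. Asic4 did not pass. In the same 5 genes the groups did not overlap, which held for 45.7% of all genes (28.9% with SNT lower and 16.8% with SNT higher). The direction of the 5 genes that passed was the same in all other settings tried for them, including both other scalings. Settings that altered only the FDR or the test statistic left the change itself as it was, so they do not bear on direction.

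**Figure D1:**
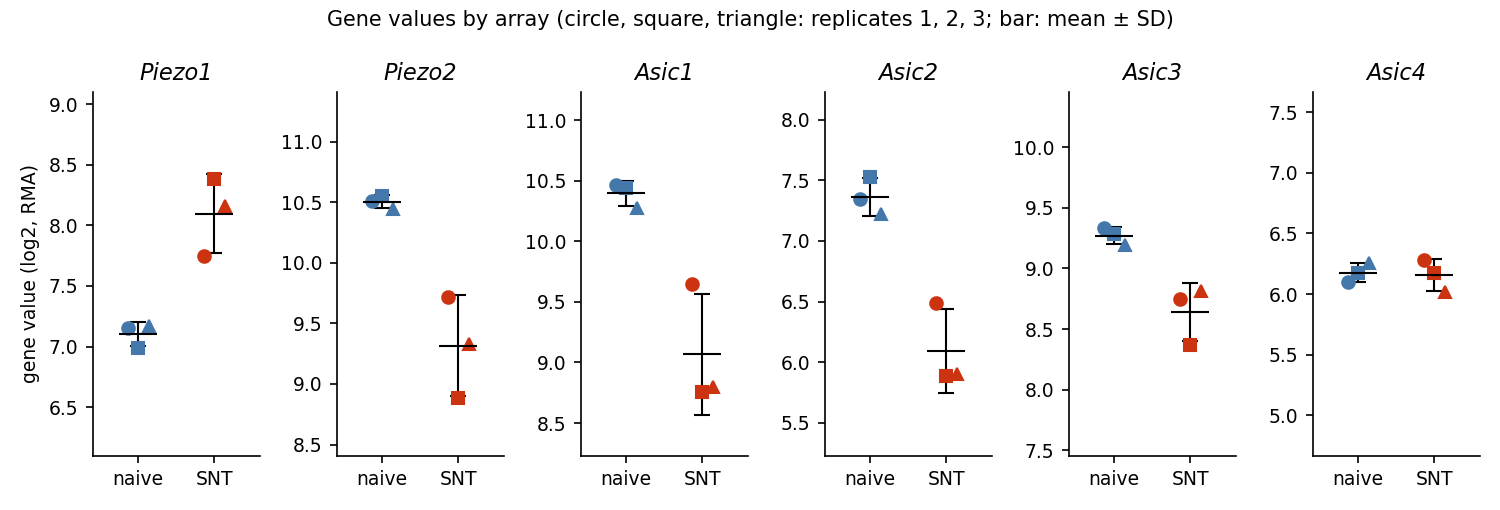
Gene level of the 6 member genes on each array (vertical axis, log2 after RMA), with naive and SNT arrays in separate colours, replicates 1, 2 and 3 as circle, square and triangle, and bars for each group's mean ± SD. The naive and SNT points are apart for Piezo1, Piezo2, Asic1, Asic2 and Asic3, and mixed for Asic4, whose 6 values lie between 6.02 and 6.28.

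Piezo1 was the one member that rose. The gene lies at chr19:67453120-67515347 in the GRCr8 assembly and was covered by 41 probe sets. Its level was 7.15, 6.99 and 7.17 in the naive pools and 7.75, 8.39 and 8.16 in the SNT pools. The groups did not overlap, and the lowest SNT value, on array 1, was still above every naive value. The change was 0.99 ± 0.17 (SE, n = 3 arrays per group; 95% confidence interval 0.60 to 1.38), a 1.99-fold higher level (limma, adjusted p = 0.00574). Over the SNT arrays taken singly against the naive mean the change was 0.64, 1.28 and 1.06. Only 6.50% of all genes had an absolute change over 0.99.

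The rise of Piezo1 was spread over its probe sets. Of the 41, 31 passed higher, none passed lower and 10 did not pass, against 5.16% of all probe sets that passed higher. The probe sets' changes ran from 0.00 to 1.49 with a median of 1.03, and in 34 of them the SNT values lay above all naive values (groups apart in either direction in 32.4% of all probe sets). The largest change was in probe set 5904510, which read 8.01, 7.69 and 8.21 in the naive pools and 8.96, 9.72 and 9.68 in the SNT pools (limma, adjusted p = 0.0162). The smallest was in probe set 6367621, which read 7.09, 6.66 and 6.54 against 6.53, 6.83 and 6.92, and there the groups overlapped. A test for unequal change among the probe sets of the gene (diffSplice F test, 40 probe sets) gave an adjusted p of 0.127 for Piezo1.

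Piezo2 moved the other way. It lies at chr18:58738734-59115252 and its 16 probe sets gave a gene level of 10.51, 10.55 and 10.45 in the naive pools and 9.72, 8.89 and 9.33 in the SNT pools. The groups did not overlap, and SNT array 1 was the highest of the SNT arrays, as it was nearest to naive over the whole array. The change was -1.19 ± 0.20 (SE; 95% confidence interval -1.65 to -0.73), a 2.28-fold lower level (limma, adjusted p = 0.00564). All 16 probe sets passed lower, against 10.7% of all probe sets, and in all 16 the groups were separate.

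Within Piezo2 the changes of the probe sets ran from -2.16 to -0.87. The largest fall was in probe set 5990375, at 7.29, 7.65 and 7.66 in the naive pools and 5.80, 4.79 and 5.55 in the SNT pools. Probe set 6294937 fell least, from 10.26, 10.12 and 9.95 to 9.46, 8.84 and 9.41, and it too passed (limma, adjusted p = 0.049). The test for unequal change gave an adjusted p of 0.32.

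The 14 probe sets named RGD1306866 gave a similar picture. Their combined level was 9.44, 9.48 and 9.31 in the naive pools and 8.52, 7.61 and 8.12 in the SNT pools, again with no overlap. The change was -1.33 ± 0.21 (SE), a 2.51-fold lower level (limma, adjusted p = 0.00522), and 13 of the 14 probe sets passed lower. The remaining one, probe set 5784964, read 3.02, 2.75 and 2.78 against 2.49, 2.21 and 2.82, which is below the level of 5.112 under which 25% of all probe sets lie. With both names taken as one gene of 30 probe sets, an alternative chosen after seeing the data, Piezo2 changed by -1.26 (limma, adjusted p = 0.00657).

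The opposite movement of the 2 Piezo genes was also read within each array, as the level of Piezo1 minus that of Piezo2. This difference lay between -3.57 and -3.28 in the naive pools and between -1.97 and -0.50 in the SNT pools. The groups were apart by a change of 2.18 ± 0.43 (SE; 95% confidence interval 0.98 to 3.39). An exact permutation test of this difference (two-sided, 20 splits of the 6 arrays) gave p = 0.1, the smallest value 3 against 3 arrays allow, and 0.117 after adjustment over the 7 pairs of members compared. The exact test could therefore not reach 0.05 in this design.

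**Figure D2:**
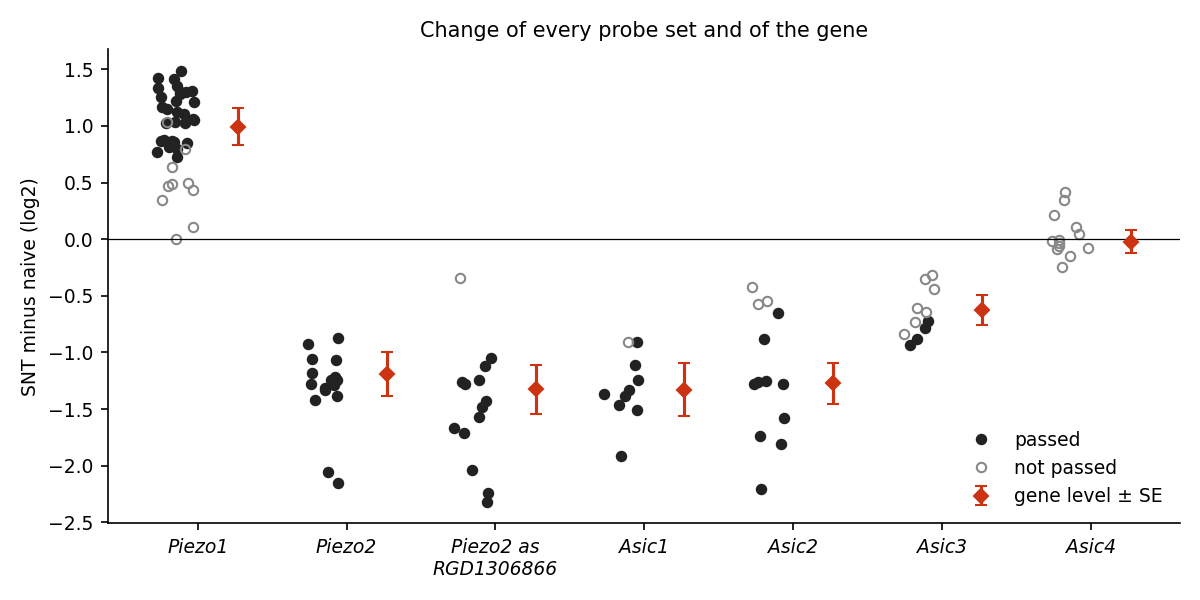
SNT minus naive change (log2) of every probe set of the 6 member genes and of those named RGD1306866, 1 point per probe set, with filled points for those that passed an FDR of 0.1 and a diamond for the gene level ± SE. Piezo1 points lie from 0.00 to 1.49, those of Piezo2 under both names, Asic1, Asic2 and Asic3 lie below 0, and those of Asic4 lie on both sides of 0.

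Among the ASIC genes, Asic1 fell by an amount that was not told apart from the fall of Asic2. It encodes a subunit of central and sensory neurones that forms acid-gated channels alone or with other ASIC subunits. The gene lies at chr7:132677158-132707379 and was covered by 10 probe sets. Its level was 10.47, 10.44 and 10.28 in the naive pools and 9.64, 8.76 and 8.80 in the SNT pools. The groups did not overlap, and SNT array 1 stood above the other two. The change was -1.33 ± 0.23 (SE; 95% confidence interval -1.88 to -0.78), a 2.51-fold lower level (limma, adjusted p = 0.00678).

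In Asic1, 9 of the 10 probe sets passed lower, and in all 10 the SNT values lay below the naive values. Among all probe sets 10.7% passed lower, and the groups were apart in either direction in 32.4%. The largest fall was in probe set 6266556, from 9.18, 9.0 and 8.89 in the naive pools to 7.96, 7.01 and 6.35 in the SNT pools. The one that did not pass was the brightest, probe set 6646594, at 12.19, 12.24 and 12.14 in the naive pools and 12.10, 10.68 and 11.08 in the SNT pools (change -0.90; limma, adjusted p = 0.147). Its value on SNT array 1 lay close to the naive values. The test for unequal change gave an adjusted p of 0.866 for this gene.

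Asic2 encodes a subunit that is known in rodents in a pair of forms with different first exons, ASIC2a and ASIC2b. The gene lies at chr10:66368308-67438237 and was covered by 13 probe sets. Its level was 7.34, 7.53 and 7.22 in the naive pools and 6.49, 5.89 and 5.90 in the SNT pools, with no overlap and with SNT array 1 again the highest of its group. The change was -1.27 ± 0.18 (SE; 95% confidence interval -1.70 to -0.85), a 2.41-fold lower level (limma, adjusted p = 0.0038). Of the 13 probe sets 10 passed lower and 3 did not pass, against 10.7% of all probe sets that passed lower.

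Asic2 was the one member whose probe sets were called unequal (diffSplice F test over 13 probe sets, adjusted p = 0.0257), a call made for 19.5% of the 10742 genes tested. The probe set farthest below the rest of the gene was 5987456, with a deviation of -1.10 from the other probe sets (adjusted p = 0.0700). It read 8.17, 8.40 and 7.61 in the naive pools and 6.92, 5.76 and 4.88 in the SNT pools, a change of -2.20. The one farthest above was 6448340, with a deviation of 0.83 (adjusted p = 0.262), at 7.05, 7.09 and 6.81 against 6.92, 6.18 and 6.60. There the groups overlapped, since SNT array 1 lay within the naive values, and the change was -0.42 (limma, adjusted p = 0.296). A single deviating probe set was not particular to Asic2. In Piezo1 probe set 6367621 deviated by -0.97 (diffSplice test of single probe sets, adjusted p = 0.0542). In Piezo2 probe set 5990375 deviated by -0.90 (same test, adjusted p = 0.0873), though neither gene was called by the F test.

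The call of unequal probe sets in Asic2 rested on single arrays. The adjusted p was 0.549 without naive array 1, 0.459 without naive array 2 and 0.155 without SNT array 3, and it was 9.65e-05 without SNT array 1. Without SNT array 1, 4 members were called unequal, namely Piezo1 (0.00548), Piezo2 (0.043), Asic1 (0.0123) and Asic2. Without SNT array 2 there were 3, Piezo1 (0.0534), Piezo2 (0.00557) and Asic2 (0.0452). The count over all genes moved as well. It was 2095 with all arrays, 500 without naive array 1 and 3187 without SNT array 3. The shifts are therefore not particular to the members.

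**Figure D3:**
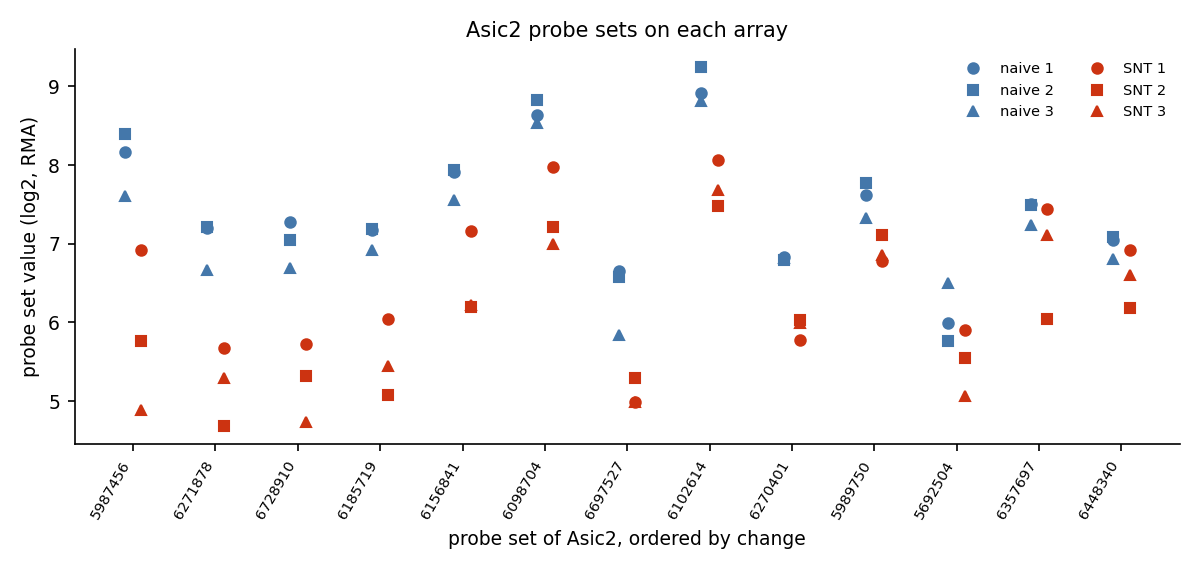
Level (vertical axis, log2 after RMA) of each of the 13 probe sets of Asic2 on the 3 naive and 3 SNT arrays, 1 point per array, with the probe sets ordered by their change from left to right. Probe set 5987456 has the largest difference between group means, a change of -2.20, and probe set 6448340 the smallest, a change of -0.42.

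Because the forms of Asic2 begin at different first exons, the start regions of the gene are shown. RefSeq gives 2 start sites of Asic2 in GRCr8, 802 kb apart on the minus strand. Each window below runs in the direction of transcription from 250 bases before the start site to 50 bases after it, and capitals mark promoter motifs found on either strand. These are the core element TATAAA, the GC box with the letters GGGCGG and the motif named after its letters, the CCAAT box. The upstream window lies at chr10:67438188-67438487 and the other at chr10:66636012-66636311, both on the minus strand.
Asic2, upstream start: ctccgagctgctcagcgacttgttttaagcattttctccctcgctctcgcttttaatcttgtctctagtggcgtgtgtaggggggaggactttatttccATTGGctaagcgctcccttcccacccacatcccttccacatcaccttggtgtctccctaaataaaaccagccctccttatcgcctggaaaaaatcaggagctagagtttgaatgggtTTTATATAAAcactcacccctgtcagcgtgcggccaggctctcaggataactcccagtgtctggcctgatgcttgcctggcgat
Asic2, downstream start: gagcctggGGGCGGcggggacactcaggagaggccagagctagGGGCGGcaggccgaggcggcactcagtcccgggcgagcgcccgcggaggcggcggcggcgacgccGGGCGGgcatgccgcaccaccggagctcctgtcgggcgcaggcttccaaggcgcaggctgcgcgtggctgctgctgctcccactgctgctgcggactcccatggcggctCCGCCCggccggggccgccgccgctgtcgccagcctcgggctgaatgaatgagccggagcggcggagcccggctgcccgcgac

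The 2 Asic2 windows differ in composition. The upstream one has a GC content of 51.0% and 10 CpG dinucleotides, with TATAAA matches beginning 34 and 30 bases before the start site, on opposite strands and overlapping, and 1 CCAAT match. The downstream one has a GC content of 78.0%, 40 CpG dinucleotides and 4 GC boxes, and neither TATAAA nor CCAAT. Over all 33469 windows of the same length in the RefSeq table the median GC content was 51.7% and the median number of CpG dinucleotides 7. Of these windows 33.1% hold a GC box, 37.5% a CCAAT match and 14.2% a TATAAA match. The positions of the array's probe sets were not used here, so no Asic2 probe set was assigned to a start site.

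Windows of the same kind are given for Piezo2 and Asic1, which fell with Asic2 by similar amounts, so that their start regions can be set beside it. The Piezo2 window lies at chr18:59115166-59115465 on the minus strand and the Asic1 window at chr7:132678457-132678756 on the plus strand. The Asic1 window lies inside the span of the gene, which begins at 132677158, so the start of that span is not shown.
Piezo2: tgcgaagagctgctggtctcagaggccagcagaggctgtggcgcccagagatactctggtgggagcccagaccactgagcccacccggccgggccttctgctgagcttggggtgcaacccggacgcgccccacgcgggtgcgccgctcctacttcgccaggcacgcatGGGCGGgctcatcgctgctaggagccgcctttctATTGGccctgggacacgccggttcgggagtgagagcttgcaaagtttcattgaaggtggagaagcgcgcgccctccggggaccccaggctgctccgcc
Asic1: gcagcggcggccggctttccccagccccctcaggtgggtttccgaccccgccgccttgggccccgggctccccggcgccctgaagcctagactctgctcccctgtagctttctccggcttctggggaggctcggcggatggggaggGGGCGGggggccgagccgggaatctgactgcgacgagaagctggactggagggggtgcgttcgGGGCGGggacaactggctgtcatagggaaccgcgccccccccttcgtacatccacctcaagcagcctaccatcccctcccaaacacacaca

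The Piezo2 window has a GC content of 67.7% with 24 CpG dinucleotides, 1 GC box and 1 CCAAT match on the opposite strand. The Asic1 window has a GC content of 69.7% with 23 CpG dinucleotides and 2 GC boxes. The window of Asic3 has a GC content of 60.7% with 6 CpG dinucleotides and no match to these 3 motifs. None of the 5 windows of these 4 genes holds the AP-1 motif TGANTCA or the cyclic AMP response element TGACGTCA on either strand, which 7.33% and 1.83% of all windows hold. A match is a description of the letters only, as is its absence.

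Asic3 also fell, and its change at the gene level was closer to 0 than those of Piezo2, Asic1 and Asic2. The gene lies at chr4:11652946-11657415 and was covered by 11 probe sets. Its level was 9.33, 9.28 and 9.19 in the naive pools and 8.75, 8.37 and 8.81 in the SNT pools. The groups did not overlap, and here SNT array 3 was the highest of its group and SNT array 2 the lowest. The change was -0.63 ± 0.13 (SE; 95% confidence interval -0.94 to -0.31), a 1.54-fold lower level (limma, adjusted p = 0.013). The call was lost without any one of the naive arrays, at adjusted p = 0.116 without array 1, 0.105 without array 2 and 0.101 without array 3, with changes of -0.60, -0.60 and -0.63. Over all genes the number that passed fell as well, from 4852 to 2736 without naive array 1.

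Of the 11 probe sets of Asic3, 4 passed lower and 7 did not pass, against 10.7% of all probe sets that passed lower. Their changes ran from -0.93 to -0.32 and the groups were apart in 7 (in either direction in 32.4% of all probe sets). Probe set 6417814 changed most, from 9.19, 9.34 and 9.32 to 8.73, 8.19 and 8.14, with no overlap. Probe set 6404962 changed least, from 9.89, 9.81 and 9.73 to 9.96, 9.05 and 9.47, and its value on SNT array 1 was above every naive value. The test for unequal change gave an adjusted p of 0.942.

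Asic4, the gene of the subunit without acid-gated current of its own, lies at chr9:84389610-84411545 and had 13 probe sets. Its level was 6.10, 6.17 and 6.26 in the naive pools and 6.28, 6.17 and 6.02 in the SNT pools, and the groups overlapped. The difference was -0.02 ± 0.10 (SE; 95% confidence interval -0.26 to 0.22; limma, adjusted p = 0.907). It changed sign with the scaling, to 0.02 after cyclic loess and 0.09 after centring. None of the 13 probe sets passed in either direction, and their differences ran from -0.24 in probe set 5650399 to 0.42 in probe set 5658574. For 2 of the 13 the mean level was below the 5.112 that marks the lowest 25% of all probe sets. The mean levels of the 13 ran from 2.77 to 7.53, and in the naive pools Asic4 had the lowest gene level of the members. The paper reports less agreement of its arrays with RNA-seq for genes at low levels. No background bound was available here, so an unchanged gene and one not detected cannot be told apart.

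Counted over the 6 genes, 70 of the 104 probe sets changed, 31 higher and 39 lower, against 15.9% of all probe sets. All 31 that passed higher were in Piezo1, and the 39 that passed lower were in the other members apart from Asic4. This count depended on single naive arrays, being 29 without array 2, 33 without array 1 and 45 without array 3. The count over the whole array fell as well, from 36017 probe sets to 13163 without naive array 1. The loss was therefore not particular to the members. Among the members, 101 of the 104 probe sets lay above the level of 5.112, under which 25% of all probe sets lie. All probe sets also include 60049 without a gene symbol. The shares of all probe sets given here and above are therefore not from a like set. Probe sets of the same gene are also not independent of each other.

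The ASIC genes were compared with each other as differences within each array, which does not compare the levels of 2 genes but the change in their difference. Asic1 minus Asic2 lay between 2.91 and 3.13 in the naive pools and between 2.87 and 3.15 in the SNT pools, a change of -0.06 (95% confidence interval -0.36 to 0.25; exact permutation test, p = 0.7). The falls of Asic1 and Asic2 were thus not told apart, within that interval. Asic1 minus Asic3 changed by -0.70, from between 1.08 and 1.16 in the naive pools to between -0.01 and 0.90 in the SNT pools (95% confidence interval of the change -1.44 to 0.03, which includes 0). Asic2 minus Asic3 changed by -0.65, from between -1.99 and -1.75 to between -2.91 and -2.25 (95% confidence interval -1.22 to -0.07). In both of these pairs the groups did not overlap.

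Against Asic4 the changes were -1.31 for Asic1 (95% confidence interval -2.01 to -0.60), -1.25 for Asic2 (-1.77 to -0.73) and -0.61 for Asic3 (-1.14 to -0.07), with no overlap between groups in any of the 3. Each of these contrasts rests on the low level of Asic4 given above. In these 5 pairs the exact permutation test (two-sided, 3 arrays per group) gave p = 0.1, the smallest it can give, and 0.117 after adjustment over the 7 pairs. With 1 probe set a gene, the most variable one, Asic1 minus Asic2 changed by 0.29, and the other pairs kept their direction.

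Genes related to the members were read from 3 lists, of which Stoml3 is in 2. Beside their counts stand the shares of all genes, of which 12.9% passed higher, 23.3% lower and 36.3% in either direction. Without naive array 1 fewer of all genes passed, 2736 in place of 4852. Of 12 measured genes for other proton sensors, 2 passed higher, 2 lower and 8 did not pass, with a median change of 0.05 beside -0.017 for all genes. Trpv1, the capsaicin receptor, which protons sensitise and open, fell by 2.04 ± 0.37 (limma, adjusted p = 0.00745). Kcnk9, the acid-inhibited potassium channel TASK-3, fell by 0.98 ± 0.20 (adjusted p = 0.0119). Gpr65, a proton-sensing receptor of leukocytes, rose by 1.34 ± 0.28 on a single probe set (adjusted p = 0.0118). Otop1, a proton channel, rose by 1.05 ± 0.25 (adjusted p = 0.0198), a call lost without SNT array 2 (0.124) or 3 (0.111), with the change at 0.65 without naive array 2 (0.0958). It was also lost with the most variable probe set (0.301) and with the ordinary statistic (0.101). The count of higher genes was 4 with array weights, cyclic loess, centring or without SNT array 1, and 1 with the most variable probe set or without SNT array 2 or 3. Asic5, a further relative of the ASIC genes, differed by 0.02 and did not pass.

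Of 9 measured genes for partners and modulators of ASIC channels, 5 passed lower, 1 passed higher and 3 did not pass, with a median of -0.35. Lin7b, a PDZ scaffold protein that binds ASIC3, fell by 1.64 ± 0.24 (limma, adjusted p = 0.00385). Nherf1, another PDZ protein that binds ASIC3, fell by 0.54 ± 0.09 (adjusted p = 0.00582), and Pick1, whose PDZ domain binds ASIC1 and ASIC2, fell by 0.35. Stoml3, a stomatin-like membrane protein of mechanoreceptors that lowers the threshold of Piezo channels, fell by 0.60 ± 0.19 (adjusted p = 0.0513). The call for Stoml3 was lost without any one of the naive arrays (adjusted p = 0.204, 0.199 and 0.160), without SNT array 2 (change -0.31, 0.160) and after centring (0.103). Stom, stomatin, rose by 0.71 ± 0.27 (adjusted p = 0.0992) with overlapping groups, and it passed neither without any one naive array nor without SNT array 2 (change 0.45) or 3. The lower count was 3 after centring and without naive array 2 or 3, and 2 with the most variable probe set. Nherf1 lost its call with that probe set (0.247).

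Of 22 measured genes for other mechanosensitive channels and modulators of Piezo, 12 passed lower, 3 higher and 7 did not pass, with a median of -0.31. Trpa1, a receptor channel for irritants, fell by 2.43 ± 0.42 (limma, adjusted p = 0.00634), and Tmem150c (Tentonin 3), which prolongs Piezo currents, fell by 1.85 ± 0.38 (adjusted p = 0.0111). Kcnk4, the mechanically gated potassium channel TRAAK, fell by 0.96 ± 0.26 (adjusted p = 0.0315), a call lost without naive array 1 (0.135), naive array 2 (0.153), SNT array 2 (0.1) or SNT array 3 (0.124). Tmem63a, a stretch-activated channel of the OSCA/TMEM63 family, rose by 0.79 ± 0.18 (adjusted p = 0.0165) and lost the call without naive array 2 (0.103), while Tmem63b and Tmem63c of that family fell by 0.46 and 0.52. Mdfic, an auxiliary subunit of Piezo channels, rose by 0.66. The lower count was 7 after centring or without naive array 3, 4 without naive array 1 and 5 without naive array 2, and the higher count was 1 without naive array 2 or with the most variable probe set.

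**Figure D4:**
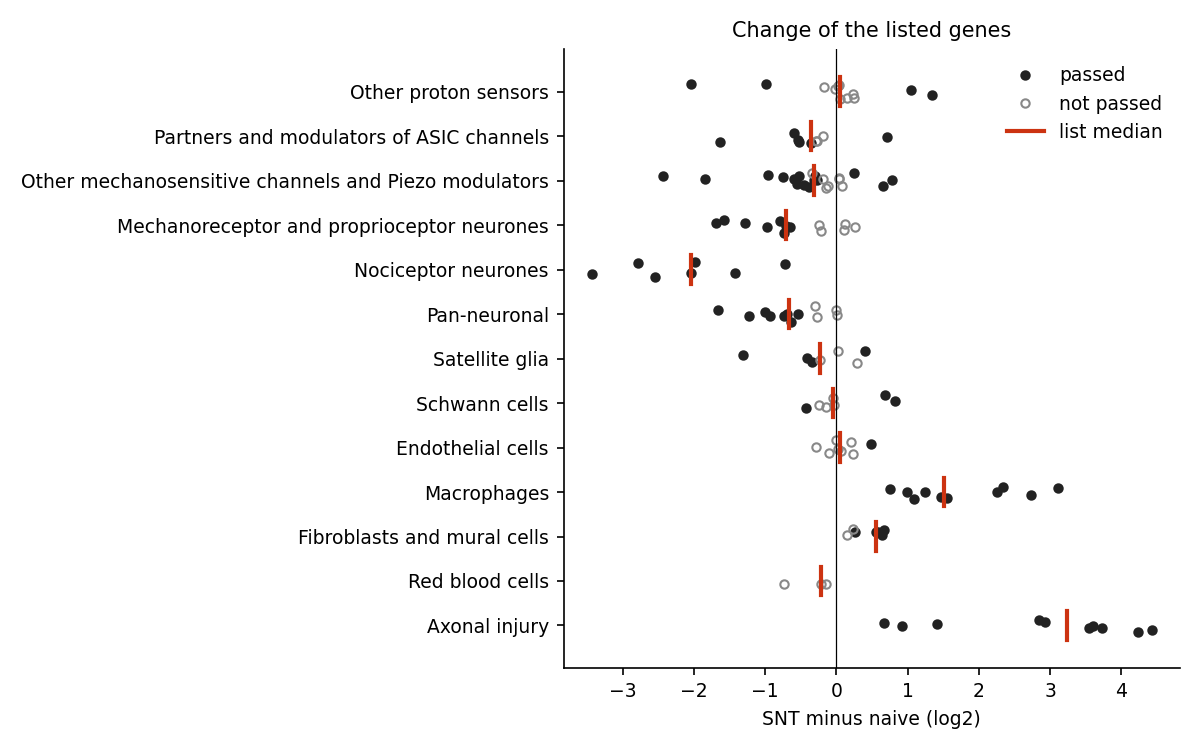
SNT minus naive change (horizontal axis, log2) of each measured gene of the 13 lists, with filled points for genes that passed an FDR of 0.1, open points for those that did not and a bar at the list median. The list medians run from -2.04 for nociceptor neurones to 3.24 for axonal injury genes, with -0.66 for the pan-neuronal list and 1.51 for macrophages.

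The DRG label was checked against markers of its cell types, and these moved between groups together with the members. Of 12 measured pan-neuronal genes 8 passed lower and 4 did not pass, with a median change of -0.66. The summed linear level of the list was 55675 to 59242 in the naive pools and 36125 to 47152 in the SNT pools. Isl1, a transcription factor of sensory neurones, fell by 1.66 ± 0.24 (limma, adjusted p = 0.00406). Of 13 measured markers of mechanoreceptor and proprioceptor neurones, the neurones in which Piezo2 is best known, 8 passed lower and 5 did not pass, with a median of -0.71 and a summed level of 15005 to 16471 against 7359 to 9952. Pvalb, parvalbumin of proprioceptors, fell by 1.70 ± 0.24 (limma, adjusted p = 0.00379). All 7 measured nociceptor markers passed lower, with a median of -2.04. Scn11a, the sodium channel Nav1.9, changed most of these and fell by 3.44 ± 0.71 (adjusted p = 0.0115). No marker of these lists could be read as absent, since the arrays give no zero level.

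On SNT arrays 1, 2 and 3 taken singly, the pan-neuronal median was -0.43, -0.90 and -0.64, and the order of the arrays was the same for Piezo2 at -0.78, -1.62 and -1.17. After subtraction of that median on each array Piezo2 was at -0.35, -0.72 and -0.53, Asic1 at -0.32, -0.74 and -0.95 and Asic2 at -0.44, -0.58 and -0.82. Those 3 genes were therefore below the neuronal median on every SNT array. Asic3 was at -0.09, -0.00 and 0.19, close to the neuronal median, and Asic4 at 0.53, 0.89 and 0.48. The pan-neuronal genes did not share a common change, so their median is a rough reference. Over all SNT arrays they ran from -1.66 for Isl1 to 0.00 for Stmn2, with Tubb3 at -0.01. The part of the neuronal markers' change in the result of any member was not tested.

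Markers of other cells stood beside the rise of Piezo1. All 10 measured macrophage markers passed higher, with a median of 1.51 and a summed level of 3474 to 4768 in the naive pools and 8324 to 14717 in the SNT pools. On SNT arrays 1, 2 and 3 their median was 0.93, 1.98 and 1.61, in the same order as Piezo1 at 0.64, 1.28 and 1.06. This order is not particular to macrophages, since the pan-neuronal falls ranked the arrays alike (-0.43, -0.90 and -0.64). The medians were 0.22, 0.59 and 0.62 for fibroblasts and mural cells and -0.12, 0.13 and 0.16 for endothelial cells, both smallest on array 1. Cd68, a lysosomal marker of macrophages, rose by 3.11 ± 0.33 (limma, adjusted p = 0.00197). Of 8 measured endothelial markers, the cells for which Piezo1 is best known, 1 passed higher and 7 did not pass, with a median of 0.05 and a summed level of 1501 to 1715 against 1531 to 1819. The one that passed was Tie1, an endothelial receptor, at 0.49 ± 0.16 (adjusted p = 0.0541), and without any one array other than SNT array 1 it did not pass, with a change of 0.30 without SNT array 2. The endothelial count was 3 after centring, 2 after cyclic loess and 0 without naive array 1.

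Of 7 measured markers of fibroblasts and mural cells 5 passed higher, with a median of 0.55 and a summed level of 10172 to 12519 against 12237 to 15195, ranges that overlap. The count was 1 without naive array 1, naive array 2 or SNT array 2, and 2 without naive array 3 or SNT array 3. Des, desmin of mural cells, rose by 0.67 ± 0.20 (limma, adjusted p = 0.0451), and did not pass without any one naive array (0.177, 0.157 and 0.174) or SNT array 2 (0.132), the change being 0.43 without SNT array 3. None of the 3 measured red blood cell genes passed, their median being -0.22, and the most changed was Slc4a1, the band 3 anion exchanger, at -0.74 ± 0.30 (adjusted p = 0.113, and 0.0115 with the replicate block). Of 7 Schwann cell markers 2 passed higher and 1 lower, with a median of -0.05, and of 7 satellite glia markers 1 passed higher and 3 lower, with a median of -0.23. Fabp7, a fatty acid binding protein of satellite glia, fell by 1.31 ± 0.19 (adjusted p = 0.00409), and Egr2, a transcription factor of myelinating Schwann cells, rose by 0.83 ± 0.31 (adjusted p = 0.0862) with overlapping groups and did not pass without any one array other than SNT array 1, with a change of 0.53 without SNT array 3. The part of these cells in the rise of Piezo1 was not tested.

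Genes of axonal injury were higher on all 3 SNT arrays. All 10 that were listed passed higher, against 12.9% of all genes. Their median was 3.24, and 3.02, 3.09 and 3.55 on SNT arrays 1, 2 and 3. The list holds Atf3, Gal, Csrp3 and Reg3b, among others, which the paper reports as raised on its exon arrays. The rise of this list is therefore no independent check. Reg3b, a secreted protein made by injured sensory neurones, rose by 4.43 ± 0.15 (limma, adjusted p = 3.37e-05). SNT array 1 was nearer to naive for 4 of the 5 members that passed, and the cause was not tested. Without SNT array 1 the changes were 1.12 for Piezo1, -1.39 for Piezo2, -1.59 for Asic1 and -1.45 for Asic2.

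The genes whose profile over the 6 arrays was nearest to each member were found by the root mean square (RMS) difference, each gene being set relative to its own naive mean, among 12109 genes with 3 or more probe sets. For Piezo1 they were Sh3bp2 (RMS difference 0.0338), Fkbp10 (0.0385) and Fermt3 (0.0401). For Piezo2 they were MAST1 (0.038), Cdkl1 (0.0394) and Cntnap1 (0.0471). For Asic2 they were Cacna2d2 (0.0312), Ptgfr (0.0416) and Rims1 (0.0549), and for Asic3 Pfn2 (0.0347), Ghitm (0.0501) and Idh3a (0.0506). Asic1 had no gene as near, its closest being St8sia1 (0.0706), Caskin1 (0.0744) and Rhobtb2 (0.0775). These are descriptions of likeness over 6 arrays of 2 groups, in which any gene with a change of the same size comes near.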

How the data were processed

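The deposited values are log2 levels of 226599 probe sets of the Affymetrix Rat Exon 1.0 ST array, made by the authors with RMA in oligo (background correction, quantile normalisation and median polish within each probe set), and ran from 1.84 to 14.35. Scanner files and detection calls were not used here, so no probe set has a background bound, and the number of arrays limits the precision. Annotation gave 1 symbol to 164162 probe sets, several to 2388 and none to 60049. Of 13411 symbols, 13365 matched the GRCr8 RefSeq gene table, and 25622 probe sets took its newer symbol. Gene levels were Tukey median polishes (at most 20 iterations) of probe sets with 1 symbol.

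Groups were compared with limma 3.58.1 in R 4.3.3 (lmFit and eBayes, group as the only term, Benjamini-Hochberg adjustment over all genes or all probe sets, FDR 0.1 as in the study). Unequal probe sets were tested with diffSplice in genes with 3 or more probe sets above percentile 25. The arrays are independent pools of animals, and the labels give no batch. The fits were also run on simulated data with independent noise of equal SD in both groups. The larger spread of the SNT arrays was not copied, so that run does not check the fits under it. The members and lists were chosen with earlier results of these data known. Named genes were all members, the 4 listed genes of each related list (1 of each cell type list) with the largest change among those that passed, or among all measured where too few passed (Slc4a1), and the 3 nearest profiles. Pick1, Mdfic, Tmem63b, Tmem63c and Asic5 were named after their values were seen. Alternatives covered the FDR, the prior, array weights, scaling, the replicate block, the summary of probe sets, the level filter and each array left out. The lists hold 153 different genes, of which 125 were measured, and Stoml3 and Trpv1 each stand in 2 lists.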

Additional observations from a re-analysis of the deposited data

How the results depend on the processing

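Over 20 other settings, 315 values and counts were recomputed for the members, for all genes and probe sets and for the related listed genes. Of these, 271 kept their side of the threshold, or stayed within 1.5 times the count or 1 SD of the value. Some of them could not move. The FDR settings left every log2 change as it was, and the level filter left Piezo2, Asic1, Asic2 and Asic3 unchanged. The 271 are therefore a description only. No value that passed changed its direction, while Asic4, which did not pass, ran from -0.09 to 0.09. At an FDR of 0.05, 21521 probe sets of the whole array changed in place of 36017, and at an FDR of 0.2, 58594, where 2 members had unequal probe sets. With an ordinary statistic without shrinkage 29 member probe sets and 19104 of all probe sets changed. When a gene was read from its most variable probe set alone, 3 members and 2971 of all genes changed in place of 4852, Piezo1 (1.03, adjusted p = 0.247) and Asic3 (-0.84, adjusted p = 0.228) no longer passed in limma, and the differences in change were 3.19 for Piezo1 minus Piezo2, 0.29 for Asic1 minus Asic2, -1.07 for Asic1 minus Asic3, -1.96 for Asic1 minus Asic4, -1.36 for Asic2 minus Asic3, -2.25 for Asic2 minus Asic4 and -0.89 for Asic3 minus Asic4. For Piezo1 the most variable probe set was 5920884, the only 1 of its 41 whose level was not above percentile 25. It read 4.22, 4.03 and 3.81 in the naive pools and 3.63, 5.52 and 6.01 in the SNT pools. For Asic3 it was 6612508, at 9.1, 8.7 and 8.4 in the naive pools and 7.3, 7.6 and 8.7 in the SNT pools. In both probe sets the groups overlapped. The cause of these shifts was not tested, apart from the single probe set that this setting uses for each gene.

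With each array left out in turn, which also leaves fewer samples to test, 2736 to 5866 genes, 4 to 5 members, 13 to 28 of the related listed genes (24 different genes with all arrays), 29 to 71 member probe sets and 13163 to 48050 of all probe sets changed. Unequal probe sets were called in 500 to 3187 genes (2095 with all arrays) and in 0 to 4 members, and the adjusted p for Asic2 ran from 9.65e-05 to 0.549. Asic3 changed by -0.73 to -0.48, Asic1 minus Asic2 by -0.22 to 0.00059 and Asic2 minus Asic4 by -1.42 to -1.0.

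The replicate numbers of the groups share only a number: the deviations of same-numbered arrays correlated at -0.07, -0.22 and 0.06, and no array correlated best with its own number. With the replicate block 5 members, 4073 genes, 63 member probe sets and 19 related listed genes changed. Its adjusted p was 0.0127 for Piezo1, 0.00955 for Piezo2, 0.00753 for Asic1, 0.00715 for Asic2, 0.0271 for Asic3 and 0.0289 for the unequal probe sets of Asic2. The intensity trend was not run for unequal probe sets, since diffSplice takes none.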
